A study of Mus musculus with 12 samples.

Results

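A set of 300 open chromatin regions had an ATAC-seq peak in all 6 libraries of regulatory T cells (Treg) taken from mice and in both libraries of donor cells that had not become Treg. None of them had a peak in either library of host conventional T cells. They were chosen by this pattern from 76882 regions, made by joining the peaks of all 12 deposited lists wherever peaks shared 1 bp or more. They are therefore described, and the pattern itself is not tested. Peaks in cells induced in culture (iTreg) played no part in the choice. Of the 300 regions, 186 had a peak in both iTreg libraries, 30 in 1 and 84 in none.

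ATAC-seq marks DNA that a transposase can reach, mostly promoters and enhancers. Treg hold immune responses in check and depend on the transcription factor Foxp3. A conventional CD4 T cell can turn into a peripheral Treg after meeting antigen, with TGF-beta and IL-2 as known signals, and its enhancers are then rebuilt. At Foxp3 itself, conserved elements inside the gene help to start and then to keep its expression.

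All cells were Balb/c CD4 T cells, and those from mice were sorted from bone marrow 14 days after donor T cells with the 6.5TCR transgene, specific for HA, had been moved into Aire-HA hosts. Converted donor cells (donor Treg) were CD45.2+ and CD45.1-, CD25+ and LAP+. Host pTreg were CD45.1+ and CD45.2+, CD25+, CTLA4+ and Nrp1-, and host tTreg had the same markers but were Nrp1+. iTreg came from WT Balb/c cells in culture and were sorted as CD25+ and LAP+. Unconverted donor cells (donor Tconv) were CD45.2+ and CD45.1-, and CD25-. Host conventional cells (host Tconv) were CD45.1+ and CD45.2-, and CD25-; the titles call them WT, and their library names carry Aire-HCO. Each of the 6 groups had 2 libraries. The labels do not say whether libraries of a group came from separate animals, so the agreement of replicates may be technical. Donor and host Tconv differ in receptor transgene, CD45 allele and transfer, which cannot be told apart here. Host Tconv also differ from host Treg in CD45.2 by the sort, and whether both came from the same mice is not shown. The donor cells were sampled at a single time, so the data do not show whether a region was open before the others converted.

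The lists held 28394 to 37934 peaks in the in vivo Treg libraries, 58357 and 63207 in iTreg, 47193 and 44350 in donor Tconv, and 37050 and 44465 in host Tconv. Every peak carries the same deposited score of 1000, which leaves the extent in bp as its only measure. The library names carry a number whose meaning the labels do not state, 17000 or a little less in donor Treg, 10000 or close to it in the host Treg libraries, 50000 in iTreg, 43000 and 42000 in donor Tconv and 50000 in host Tconv. They also carry a code that is shared by donor Treg, donor Tconv and host Tconv, is another in both host Treg groups and is lacking in iTreg. What the number and the code have to do with list length was not tested. The reads behind the lists are unknown, and a missing peak does not show closed chromatin. Each library had a peak at the start of 5 or 6 of 8 T cell marker genes (Cd3e, Cd3d, Cd3g, Cd4, Cd5, Cd28, Lck and Zap70), and none had one at the start of the CD8 genes Cd8a and Cd8b1 or of any of 5 B cell or 4 erythroid marker genes. Away from the starts, regions given to these genes did have peaks. Of 12 at the CD8 genes, 8 and 6 had one in donor Tconv and 5 in each host Tconv library. In iTreg 7 and 6 of them had one, and in each in vivo Treg library 0 or 1. Of 21 at the B cell genes, 2 to 7 had one in the in vivo libraries and 13 and 16 in iTreg. Of 6 at the erythroid genes, 3 had one in each in vivo library and 6 in each iTreg library. Starts of other types did have peaks. Of 6 myeloid marker genes, 1 had one in each in vivo library and 2 in each iTreg library. Of 3 NK cell genes, 1 had one in every library but donor Treg replicate 1, and of 3 plasma cell genes, 0 to 2 had one. Of 4 stem and progenitor genes, 1 had one in each in vivo Treg library, 2 and 3 in iTreg and 0 in the conventional libraries. No member lay at any of these genes, and the part of other cells in the results was not tested.

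Of the 300 members, 291 could be compared with annotated gene starts. Of these 291, 14 covered such a start, 12 of them of protein-coding genes. The starts used were not complete: the member that overlaps Snai2 lay 75718 bp from the nearest of them. More than 14 members may therefore cover a gene start. No gene of the lists used here was among the 14 found, so promoters are shown for 5 genes, picked after the values were seen. Gna15 is shown because it was the protein-coding gene with all 250 bases in the stretch covered by peaks of all 8 libraries that define the set, Kdm5b for its 159 such bases, the next most among the protein-coding ones, and Srxn1, Cav2 and Mctp1 because they held the AP-1 letters TGANTCA. AP-1 factors act downstream of the T cell receptor. Gna15 encodes a G protein subunit of blood cells, Mctp1 a calcium-binding membrane protein, Kdm5b a histone demethylase, Srxn1 an antioxidant enzyme and Cav2 a caveolin. The 250 bases before the start are from RefSeq (GRCm38.p6), 5′ to 3′, with every searched motif in capitals.
Gna15 promoter (chr10:81524226-81524475, minus strand): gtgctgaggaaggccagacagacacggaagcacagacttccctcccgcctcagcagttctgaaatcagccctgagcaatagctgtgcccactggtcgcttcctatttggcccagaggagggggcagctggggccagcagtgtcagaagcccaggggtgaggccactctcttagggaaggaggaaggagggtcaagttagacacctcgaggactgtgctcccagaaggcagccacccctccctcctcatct
Kdm5b promoter (chr1:134559928-134560177, plus strand): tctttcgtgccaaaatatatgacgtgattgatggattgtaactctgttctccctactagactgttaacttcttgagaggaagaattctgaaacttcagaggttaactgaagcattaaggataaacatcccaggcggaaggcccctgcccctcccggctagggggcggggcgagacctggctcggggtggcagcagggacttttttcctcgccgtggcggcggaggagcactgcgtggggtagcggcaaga
Srxn1 promoter (chr2:152105274-152105523, plus strand): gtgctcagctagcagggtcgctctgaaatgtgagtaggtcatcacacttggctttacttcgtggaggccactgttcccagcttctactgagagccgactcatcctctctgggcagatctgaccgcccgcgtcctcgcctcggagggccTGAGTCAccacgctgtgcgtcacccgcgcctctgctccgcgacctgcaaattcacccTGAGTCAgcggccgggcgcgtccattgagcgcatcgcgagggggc
Cav2 promoter (chr6:17280935-17281184, plus strand): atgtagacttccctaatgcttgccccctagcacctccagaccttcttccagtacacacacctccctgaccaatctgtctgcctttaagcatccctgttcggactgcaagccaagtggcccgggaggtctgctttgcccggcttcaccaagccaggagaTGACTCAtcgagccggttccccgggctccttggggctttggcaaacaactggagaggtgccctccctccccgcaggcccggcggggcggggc
Mctp1 promoter (chr13:76579347-76579596, plus strand): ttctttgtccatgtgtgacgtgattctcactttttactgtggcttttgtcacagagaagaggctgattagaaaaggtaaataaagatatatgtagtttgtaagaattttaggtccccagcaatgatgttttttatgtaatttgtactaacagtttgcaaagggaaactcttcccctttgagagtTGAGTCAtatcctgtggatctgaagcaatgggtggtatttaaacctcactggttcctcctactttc
TGANTCA, which reads the same on both strands, was found in 3 of the 14 promoters, or 21.4%, against 6.75% of 32851 RefSeq promoters of the same length. Srxn1 held it at 2 sites, and the one 45 bases before its start lay in the bases shared by all 8 libraries. The Cav2 match at 92 and the Mctp1 match at 66 bases before the start lay inside the member. The Mctp1 match lay outside the shared bases, and the Cav2 member had no base shared by all 8 libraries. On both strands, TTCNNNGAA (STAT), TGTTTAC (forkhead) and TTTCCA (NFAT) were each in 1 of the 14, at Ttbk1, Adam8 and Amph, against 7.02%, 3.17% and 18.6% of all promoters. TGTGGTTT (RUNX), GGAANTTCC (NF-kappaB), CAGGAAGT (ETS) and CTTTGAA (TCF/LEF) were in none, against 1.49%, 0.813%, 2.69% and 4.46% of all promoters. A longer NF-kappaB motif, which can overlap the other, was also in none, against 1.41%. With 14 promoters these shares describe the set and no more. The Gna15 member itself covered 613 and 996 bp in donor Treg, 1052 and 1090 bp in host pTreg, 664 and 1075 bp in host tTreg, 976 and 1210 bp in iTreg and 1072 and 992 bp in donor Tconv, so the groups overlapped there.

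Regions of the opposite pattern were rare. In all, 2242 regions had a peak in both donor Tconv libraries and neither host Tconv library, 2.92% of all regions, and 300 of these were open in all 6 in vivo Treg libraries. With donor and host Tconv exchanged, 284 regions (0.369% of all) remained, and 7 of them were open in all 6. The 7 lay at Ndrg3, Ak5, Tlcd2, Ppil1, Hars and Ms4a6c and, in 1 case, more than 50 kb from any protein-coding gene. The number of Treg libraries that joined a donor Tconv region was lowest in the middle. Of the 2242 regions, 1119 were in no in vivo Treg library, 263 in 1, 176 in 2, 136 in 3, 121 in 4, 127 in 5 and 300 in 6. Of the 284 host Tconv regions, 211 were in none and the counts for 1 to 6 libraries were 21, 13, 17, 10, 5 and 7.

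**Figure D1:**
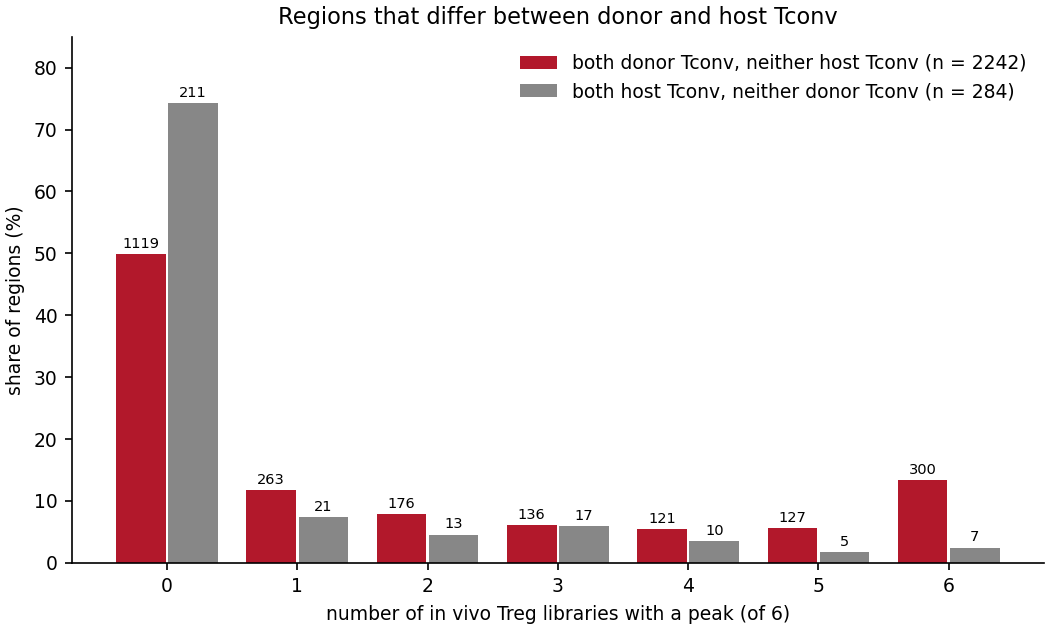
Share of regions (%) by the number of in vivo Treg libraries with a peak, for regions with a peak in both donor Tconv and neither host Tconv library (left bar of each pair, n = 2242) and for the reverse (right bar, n = 284). Numbers over the bars are regions; the donor Tconv bars are lowest at 4 libraries, with 121 regions, and reach 300 at 6, against 7 at 6 for host Tconv.

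Seen from the Treg side, 1131 regions were open in all 6 in vivo Treg libraries and in neither host Tconv library. Of these, 300 (26.5%, exact binomial interval 24% to 29.2%) were in both donor Tconv libraries, 244 (21.6%) in 1 and 587 (51.9%) in neither. Of 638 such regions in neither donor Tconv library, 7 (1.1%, 0.442% to 2.25%) were in both host Tconv libraries and 44 (6.9%) in 1. These intervals cover counting over regions only. The count of 300 depends on the host lists: a further 752 regions were kept out by a peak in host Tconv replicate 2 alone, and 61 by one in replicate 1 alone. Without host Tconv replicate 2 the pattern had 1052 regions, and without donor Tconv replicate 2 it had 464. The exchanged pattern had 43 regions without host Tconv replicate 1, 15 without host Tconv replicate 2, 30 without donor Tconv replicate 1 and 27 without donor Tconv replicate 2. Absence from 1 group alone was also seen for other groups: 296 regions were in every in vivo library but those of host tTreg, which include the shortest list, 79 in all but donor Treg and 19 in all but host pTreg. With every list cut to its 28394 widest peaks the pattern had 253 regions, 52 of the 300 were kept, the exchanged pattern had 94 and neither Foxp3 region was in the set. With only the 4 conventional lists cut to their 37050 widest peaks, which was added after seeing the data, the counts were 268 and 36, and 136 of the 300 were kept.

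Foxp3 had 2 regions in the set, both with a small donor Tconv peak inside larger donor Treg peaks. Foxp3 lies on the plus strand of chromosome X (7579676 to 7595243, mm10). The first region, chrX:7582796-7585032, begins 3120 bp past the gene start, inside the gene body. Its peak covered 1422 and 2175 bp in donor Treg, 1358 and 1287 bp in host pTreg, 1102 and 2113 bp in host tTreg, 921 and 832 bp in iTreg, and 391 and 431 bp in donor Tconv. Every in vivo Treg peak was larger than either donor Tconv peak, and both host Tconv lists had none, with their nearest peak 1402 bp away. The stretch common to the 6 in vivo Treg and 2 donor Tconv libraries was 388 bp long, from 7583922 to 7584309, or 4246 to 4633 bp past the gene start. The conserved element CNS2, known for keeping Foxp3 on in dividing Treg, lies in the first part of the gene, and its borders were not in the tables used.

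The second region, chrX:7592924-7596817, crosses the end of Foxp3 and overlaps Ccdc22 (7593809 to 7605420), so a peak here cannot be given to 1 of the 2 genes. Without donor Treg replicate 2 the region stayed in the set as chrX:7594059-7596756, and its midpoint then fell past the end of Foxp3, so that it was counted at Ccdc22. It was the widest member. The peak covered 2698 and 3894 bp in donor Treg, 1326 and 1020 bp in host pTreg, 714 and 1679 bp in host tTreg and 248 and 209 bp in donor Tconv. It was missing in both iTreg and both host Tconv libraries. Donor Treg peaks were thus larger than those of any other group here. In mean extent over donor Tconv, donor Treg stood at 14.4-fold here, rank 1 of the 300, and at 4.38-fold in the first region, rank 4. Between them stood Fubp3 (6.29-fold), where peaks covered 1374 and 1257 bp in donor Treg and 218 and 200 bp in donor Tconv, and Med15 (4.59-fold), with 648 and 728 bp in donor Treg and 150 bp in both donor Tconv libraries. Of the other 3 Foxp3 regions, chrX:7587485-7587871 was in all 4 conventional libraries and no Treg library, and chrX:7586325-7586990 was in all 4 and iTreg replicate 2. The last, chrX:7591689-7592000, had a peak of 312 bp in host tTreg replicate 1 and in no other library. In bulk libraries, few cells with an open site and weak opening in many cells cannot be told apart.

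Other Treg genes are given beside Foxp3. At the 20 genes of the Treg core list, 116 to 144 regions had a peak in the in vivo Treg libraries, 116 and 117 in donor Tconv and 85 and 106 in host Tconv. Of its 21 regions in all 6 in vivo Treg and neither host Tconv library, 4 were in both donor Tconv libraries, 4 in 1 and 13 in neither. Over all 1131 such regions the shares were 26.5% in both, 21.6% in 1 and 51.9% in neither, so the list did not stand out. The 13 list regions in neither donor Tconv library lay at Itgb8 (4), Ikzf2 (3), Il2ra (2), Ctla4, Ikzf4, Lrrc32 and Cd83 (1 each). Il2ra encodes CD25, on which the donor cells were split, and CTLA4 was used for the host Treg sort. The part of Treg cells left in the donor Tconv gate was not tested.

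**Figure D2:**
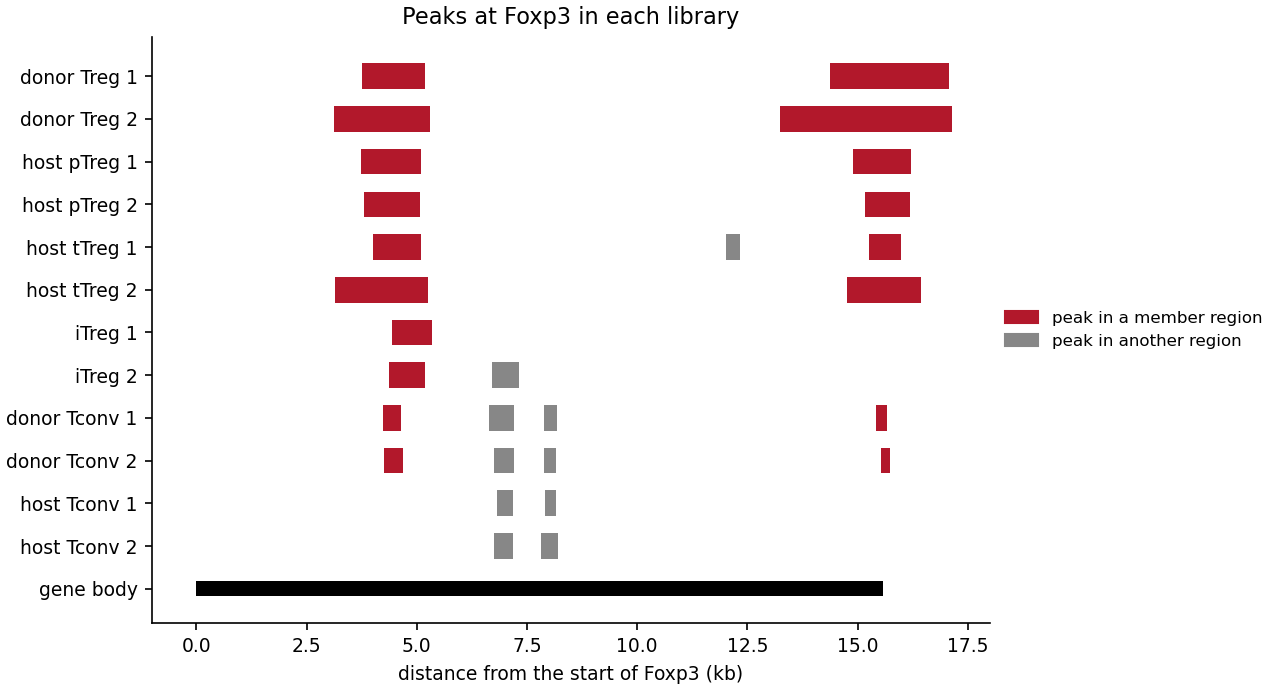
Peaks of each library at Foxp3 by distance from the start of the gene (kb). Dark red peaks belong to the 2 member regions and grey ones to other regions, and the black bar is the gene body; the donor Tconv peaks of 391 and 431 bp and of 248 and 209 bp lie within the longer donor Treg peaks.

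Over the whole set, the donor Tconv libraries had the smallest median peaks, with host tTreg replicate 1 close to them. The median member peak covered 361 and 387.5 bp in donor Treg, 413.5 and 352 bp in host pTreg, 312 and 425.5 bp in host tTreg and 309.5 and 267 bp in donor Tconv. In 141 members (47%) both donor Treg peaks were wider than both donor Tconv peaks, in 47 (15.7%) both were narrower, and in 112 the groups overlapped. Over all 27581 regions with peaks in these 4 libraries, 5.28% were wider and 67.4% narrower in donor Treg. Host pTreg peaks were wider than donor Tconv peaks in 159 members (53%, against 7.25% of 27610 regions) and host tTreg peaks in 124 (41.3%, against 3.86% of 24400). They were narrower in 37 (12.3%, against 59.9%) and 44 (14.7%, against 71.5%). The choice of regions without a host Tconv peak can itself favour small donor Tconv peaks, so these shares support nothing beyond the values. Just outside the set, in the 813 regions with a peak in 1 host Tconv library, donor Treg peaks were wider in 34.9% and narrower in 22.3%. In the 22132 regions with peaks in both host Tconv libraries the shares were 4.11% and 68%.

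Some donor Tconv peaks in the set were as small as the lists allow. The narrowest peak of any list was 150 bp. Donor Tconv replicates 1 and 2 had a peak of that size at 26 (8.67%) and 48 (16%) members, against 6.25% and 6.27% of all their peaks, and in 12 members both did. In the in vivo Treg libraries this held for 2 to 29 members (0.667% to 9.67%), against 5.86% to 7.48% of all their peaks. The 29 were in host tTreg replicate 1, where 7.4% of all peaks had that size. All 8 defining libraries shared at least 1 base in 291 members, with a median of 180.5 bp over the set. In the other 9, at Erich2, Nceh1, Tnfsf10, Lao1, Cav2, Sema4b, Syne3, Slc39a2 and Usp51, the peaks were joined only through each other.

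**Figure D3:**
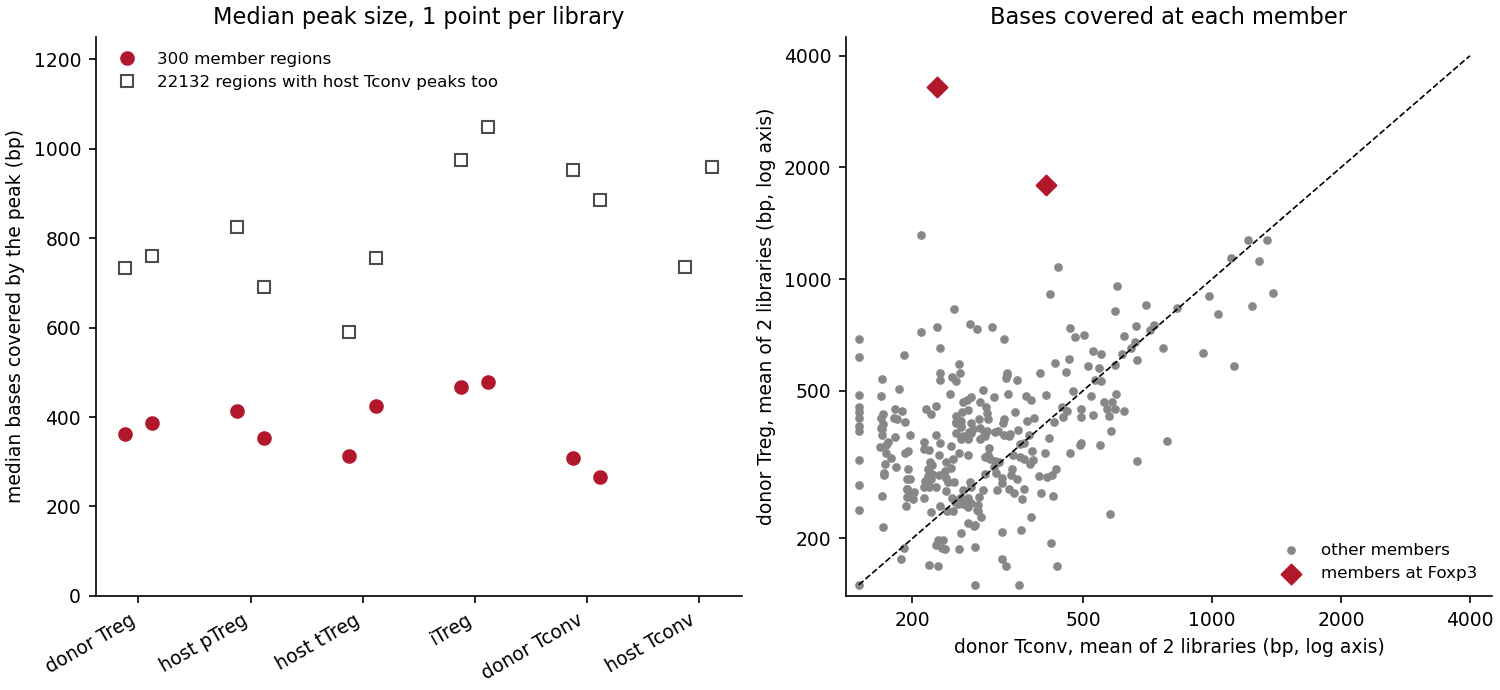
Left, median bases covered by a library's peak (bp) at the 300 members (filled circles) and at the 22132 regions that also had peaks in both host Tconv libraries (open squares), 1 point per library. Right, mean bases covered in donor Treg against donor Tconv at each member on log axes, with equality dashed; both Foxp3 members (diamonds, 14.4-fold and 4.38-fold) lie far above the line.

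By gene, the set was scattered. Of the members, 158 lay in a gene body, 90 within 50 kb of the nearest gene end and 52 (17.3%) farther away, against 10.1% of all regions. The set touched 235 genes, 222 with 1 member and 13 with 2. Members made up 0.39% of all regions and 0.359% of those assigned to a gene. The rule asks for a peak in every in vivo Treg library and none in host Tconv. It can therefore itself favour Treg genes in the list shares that follow. The Treg core list held 4 of 210 (1.9%), at Foxp3, Ikzf2 and Cd83, the Th17 list 2 of 104 (1.92%), the Tfh list 1 of 61 (1.64%), the anergy and exhaustion list 3 of 188 (1.6%), the effector and tissue Treg list 2 of 225 (0.889%) and the TGF-beta list 1 of 194 (0.515%). No member lay at genes of the TCR activation and AP-1 list (302 regions), the naive and quiescence list (303), the pan-T list (259), the Th1 and cytotoxic list (141), homing and retention (134), IL-2 and STAT5 (133) or Th2 (47). The lists of B cells (28 regions), plasma cells (15), myeloid cells (37), erythroid cells (11), stem and progenitor cells (36), CD8 T cells (12) and NK cells (9) held none either. With 0.359% of assigned regions in the set, lists of this size hold few members at best, and a count of 0 says little. Maf stands in both the effector and the Tfh list.

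Several transcription factor genes had members with small donor Tconv peaks. At Maf, the gene of c-Maf, which drives IL-10 and effector programs, the member chr8:115726326-115727224 covered 777 and 693 bp in donor Treg, 791 and 610 bp in host pTreg, 572 and 899 bp in host tTreg and 286 and 280 bp in donor Tconv, with none in iTreg. All 6 in vivo Treg peaks were wider than both donor Tconv peaks. At Ikzf2, which encodes the Treg factor Helios, chr1:69533014-69533479 covered 449 and 429 bp in donor Treg, 383 and 466 bp in host pTreg, 401 and 405 bp in host tTreg and 150 bp in both donor Tconv libraries, again with none in iTreg. The donor Tconv peaks there were at the smallest size a list holds. Tox, a factor of exhausted T cells, had the member chr4:6963449-6963970 with 443 and 404 bp in donor Treg, 380 and 441 bp in host pTreg, 399 and 522 bp in host tTreg and 213 and 150 bp in donor Tconv, also without an iTreg peak. Ahr, which encodes the aryl hydrocarbon receptor, had members at chr12:35558803-35559284 (445 and 421 bp in donor Treg, 205 and 236 bp in donor Tconv) and chr12:35578790-35579567 (378 and 512 bp, and 300 and 240 bp). Both lie outside the gene and had peaks in both iTreg libraries, of 357 to 721 bp. At the second, the host tTreg peaks of 284 and 383 bp overlapped donor Tconv in size. Tox2 did not show the difference: its member covered 275 and 267 bp in donor Treg and 354 and 277 bp in donor Tconv. Smad3, a carrier of the TGF-beta signal, had a member 44101 bp from its nearest end, with 264 and 281 bp in donor Treg, 666 and 601 bp in iTreg and 150 and 238 bp in donor Tconv. Its host tTreg peaks covered 287 and 359 bp. Those of host pTreg, at 191 and 266 bp, overlapped donor Tconv in size.

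Genes of surface and signalling proteins were next. Tnfrsf1b encodes TNFR2, a receptor through which TNF expands Treg. Its member chr4:145249740-145250697 covered 606 and 557 bp in donor Treg, 903 and 856 bp in host pTreg, 609 and 958 bp in host tTreg, 823 and 807 bp in iTreg and 550 and 476 bp in donor Tconv. The neighbouring receptor gene Tnfrsf8 (CD30) had a member 32628 bp further on, with 358 and 394 bp in donor Treg and 215 and 150 bp in donor Tconv. Cd83, whose product marks activated lymphocytes and dendritic cells, had a member with 267 and 292 bp in donor Treg and 150 bp in both donor Tconv libraries. Cd86, which encodes a ligand of CD28 and CTLA4, had 2 members 4936 bp apart. The first had peaks in both iTreg libraries and the second in none; donor Treg peaks covered 287 and 321 bp and 507 and 436 bp, and donor Tconv peaks 282 and 194 bp and 312 and 225 bp. Dgkz, whose product dampens T cell receptor signals, went the other way, with 189 and 232 bp in donor Treg and 378 and 339 bp in donor Tconv.

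The remaining genes with 2 members were Erich2, Gem, Adgrd1, Rbms3, Syne3, Niban1, Nol10, Mdfic, Stk24 and Nek7. Gem, a GTPase of activated T cells, had 2 of its 4 regions in the set, Foxp3 2 of 5 and Nek7, whose product acts in the NLRP3 inflammasome, 2 of 31. At Erich2, Gem, Adgrd1, Syne3, Nol10 and Mdfic both members were also open in both iTreg libraries, whereas both Niban1 members were open in neither. In all, 18 pairs of neighbouring members lay within 50 kb of each other, and in 10 of them both had peaks in the same number of iTreg libraries. Pairs of distant members were not compared. With 62% of all members in both iTreg libraries and 28% in none, many such pairs would match too. Besides Foxp3, the widest members lay at 6030468B19Rik (2116 bp), Nup210 (2085 bp) and Lamc1 (1839 bp).

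Cultured iTreg carried part of the set. A peak in both iTreg libraries was found at 186 members (62%, exact binomial interval 56.2% to 67.5%), in 1 at 30 (10%) and in none at 84 (28%). Over all regions 71% had a peak in both, but these regions were joined from all lists with iTreg peaks among them. That share is therefore not independent of iTreg. The share was 44.8% (40.7% to 48.9%) in the 587 regions of the 6 in vivo Treg libraries with no conventional peak, and 96.9% in the 22132 regions that also had both host Tconv peaks. The 813 regions with 1 host Tconv library stood between, at 72.2%. The order was the same for a mean peak of 250 to 400 bp. There the share was 61.6% of 159 members, 48.4% of 287 regions without conventional peaks and 93.2% of 3188 regions with all of them. For regions without conventional peaks the mean was over the 6 in vivo Treg libraries, and otherwise it included donor Tconv. Sizes were therefore not strictly alike between these sets. The iTreg lists were the longest, so culture and list length cannot be told apart.

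At members in both iTreg libraries, iTreg peaks were mostly wider than donor Tconv peaks, though smaller than iTreg peaks elsewhere. The median of the mean extent at the 186 was 487 bp in iTreg and 296.75 bp in donor Tconv. Over all 35670 regions with peaks in both libraries of each group, the medians were 690 and 625 bp. Here too, the choice of regions without a host Tconv peak can itself favour small donor Tconv peaks. In 134 (72%) both iTreg peaks were wider than both donor Tconv peaks, against 48% of all 35670 regions with peaks in these 4 libraries. They were narrower in 10 (5.38%, against 17.5%). The 84 members without iTreg peaks were of similar size in Treg, with medians of 385.25 bp in donor Treg and 255 bp in donor Tconv, against 372 and 296.75 bp at the 186. Their genes include Ikzf2, Maf and Tox, named above.

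**Figure D4:**
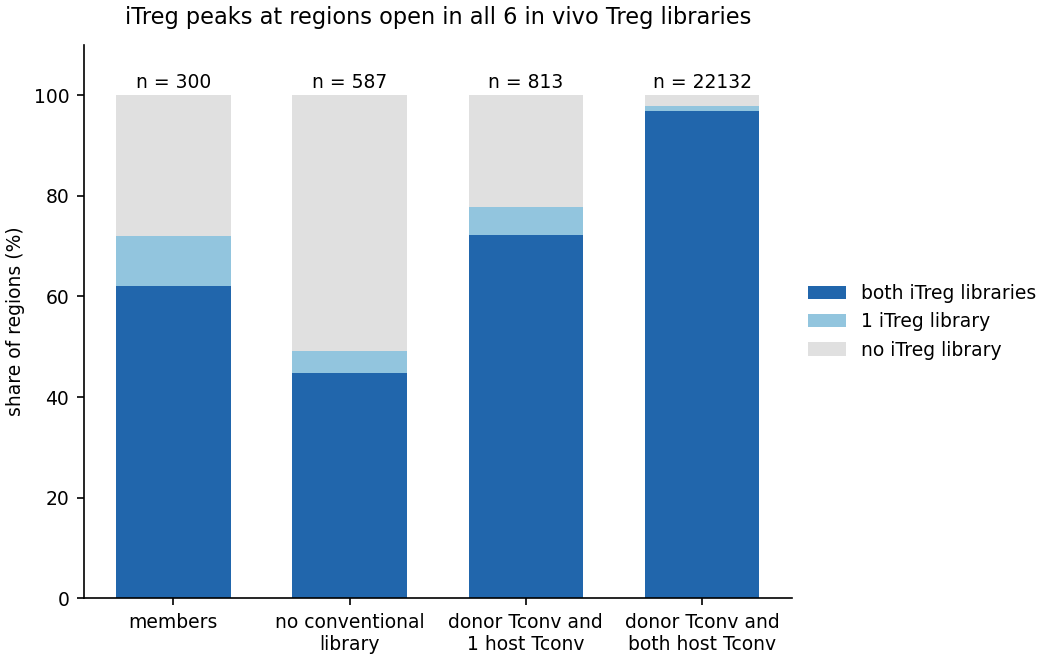
Share of regions (%) with a peak in both, 1 or no iTreg library, among regions with a peak in all 6 in vivo Treg libraries, split by their peaks in conventional libraries. The share in both iTreg libraries was 62% in the members (peaks in both donor Tconv, neither host Tconv), 44.8% with no conventional peak, 72.2% with 1 host Tconv library and 96.9% with both.

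Most members lay away from gene ends. Within 1 kb of a protein-coding gene end lay 28 members (9.33%, exact binomial interval 6.29% to 13.2%), against 5.11% of the 587 regions with no conventional peak, 42.8% of the 22132 with all of them and 18.5% of all regions. The nearest host Tconv peak was a median of 5783.5 bp away, against 6028 bp for the 587. It lay within 500 bp of 15 members (5%), against 24 (4.09%) of the 587. The nearest were at Dip2a (47 bp), Sh3d19 (68 bp), Tpst2 (82 bp), Mink1 (103 bp) and Stk24 (165 bp). The farthest were at Thsd7b (501150 bp), Il15 (355843 bp), Snai2 (324828 bp), a region of chromosome 10 with no gene nearby (309788 bp) and Mctp1 (278254 bp).

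The stretch around Ptprc was looked at on its own because the cells were sorted by its alleles. Within 20 Mb of Ptprc, the CD45 gene (138062859 to 138175756), lay 18 members (6%, exact binomial interval 3.59% to 9.32%), against 3.07% of the 587 regions with no conventional peak and 1.72% of all regions. They lay at Thsd7b, Fcmr, Kdm5b, Nav1, Tnni1, Nek7, Aspm, Rgs2, Niban1, Lamc1, Abl2 and Ralgps2 and between genes. Donor cells and host Treg were sorted as CD45.2+ and host Tconv as CD45.2-, so alleles near Ptprc go with the pattern and cannot be told apart from it. Regions found in host Tconv and not donor Tconv lay there in 26 of 284 cases (9.15%), against 64 of the 2242 (2.85%) found in donor Tconv and not host Tconv. In windows of 5 Mb over the genome, 5 members lay at 135 to 140 Mb of this chromosome (of 309 regions) and as many at 120 to 125 Mb of chromosome 8 (of 411). Without host Tconv replicate 2 the share near Ptprc was 3.23%, and with all lists at 28394 peaks it was 2.37%. Without the 18 regions, 282 members remained and 63.1% of them had both iTreg peaks.

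**Figure D5:**
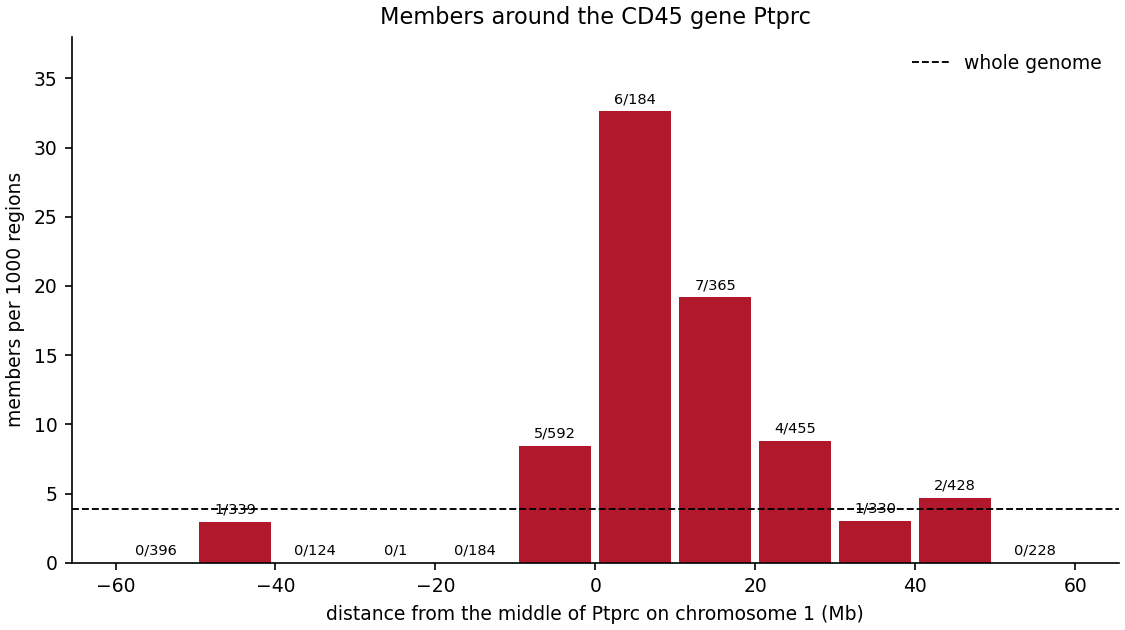
Members per 1000 regions in bins of 10 Mb by distance from the middle of Ptprc on chromosome 1, with members and regions over each bar and the whole-genome value as a dashed line. The bins from 0 to 10 and 10 to 20 Mb held 6 of 184 and 7 of 365 regions. On the other side, the bins from -10 to 0 and -20 to -10 Mb held 5 of 592 and 0 of 184. Beyond the window of 20 Mb, the bin from 20 to 30 Mb held 4 of 455.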

How the data were processed

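The 12 libraries were made by ATAC-seq. The submitters' processing notes name Bowtie2 (2.3.3), HOMER (4.10), bedtools and mm10. Which tool did what, with which settings, and any shift of reads for the transposase are not given in the sources used. The deposited lists hold a chromosome, start, end and score per peak, and the authors set the score to 1000 throughout. Depth is unknown.

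Peaks sharing 1 bp or more were joined into 76882 regions with Python 3.11.15 and pandas 2.3.3. A region went to the protein-coding gene (RefSeq, GRCm38.p6, the coordinates of mm10) that contained its midpoint, or failing that to the gene with the closest end, up to 50 kb away. All 233 list genes were found. The merging rule was tested on simulated data. Coordinates count from 1. Gene starts came from the RefSeq promoter table, in which chromosome 18 was not analysed here. Members on that chromosome, among them the Tubb6 member, were therefore not compared with gene starts.

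The members and lists were chosen with earlier results of these data known. Genes were named if they were Foxp3, had 2 or more members or stood in a list, with the 5 widest members and the 5 nearest to and farthest from a host peak; others were chosen after their values were seen. No test was made, because the rule used the peaks themselves. Exact binomial intervals (95%) cover counting over regions only. Alternatives changed the joining, the peaks kept, the distances and the libraries used.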

Additional observations from a re-analysis of the deposited data

How the results depend on the processing

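No paired analysis was possible because the values are counts of a peak pattern and come from no test, and nothing in the labels ties equal replicate numbers to 1 animal. Joining only peaks with 100 bp in common, joining across gaps of 100 bp, and excluding host peaks within 500 bp kept all 6 summary values (the counts of members, of the exchanged pattern and of Foxp3 members, and the shares in both iTreg libraries, near gene ends and near Ptprc) within 1.5 times or the binomial interval. Keeping peaks of 200 bp or more gave 246 members and moved the exchanged count to 3. With all lists at 28394 peaks the exchanged count was 94, the iTreg share 48.6%, the Ptprc share 2.37% and the Foxp3 count 0, since a cut by width removes narrow peaks. With the 4 conventional lists at 37050 peaks these were 36, 70.1%, 4.1% and 1. Base-pair coverage gave 391 members and 1 at Foxp3. Leaving out 1 library at a time, the members ranged over 299 to 1052, the exchanged pattern 7 to 43, the Foxp3 count 1 to 2, the iTreg share 59.6% to 69.1%, the gene-end share 7.76% to 10.5% and the Ptprc share 3.23% to 6.09%; leaving out a library that the rule reads loosens it by construction. The Foxp3 count of 1 without donor Treg replicate 2, and that under base-pair coverage, came from the second region being given to Ccdc22 by its midpoint, while it kept the pattern. A limit of 5 kb to a gene end gave 22%, and a peak in at least 1 iTreg library 72%. Unknown read depth limits every statement on a missing peak.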

Other observations

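Further genes with members, named after their values were seen, are given as values only. The Tnfrsf1a member, at a TNF receptor gene, covered 820 and 877 bp in donor Treg and 1305 and 1176 bp in donor Tconv. The Xcl1 member, at a chemokine gene, covered 465 and 497 bp in donor Treg, 516 and 547 bp in iTreg and 353 and 266 bp in donor Tconv. At Adora2a, which encodes an adenosine receptor that restrains T cells, donor Treg peaks covered 454 and 438 bp and donor Tconv peaks 215 and 150 bp. The Nlrc5 member, in the body of a gene that drives MHC class I expression, covered 433 and 499 bp in donor Treg and 641 and 480 bp in donor Tconv, so the groups overlapped. The Tnr member covered 228 and 238 bp in donor Treg and 605 and 554 bp in donor Tconv. No miRNA hairpin of the RefSeq table lay in a member.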
